A study of Mus musculus with 27 samples.

Results

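The contractile apparatus of the heart was examined through 10 of the 23279 genes in the deposited expression table. They encode myosin light chains (Myl2, Myl3, Myl4 and Myl7), myosin heavy chains (Myh6 and Myh7), subunits of the troponin complex (Tnnt2, Tnni1 and Tnni3) and cardiac α-actin (Actc1). The genes were chosen by name, and all 10 were found in the table.

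The study compared limb bud-like tissue grown from mouse embryonic stem cells (ES cells) with tissues of mouse embryos by RNA sequencing. ES–FLB and ES–HLB stand for its forelimb-like and hindlimb-like mesenchyme on day 9, from EB5 cells that carry a GFP reporter on 1 Hand2 allele (Hand2::GFP +/-) and are 1 cell line. Both kinds of aggregate received BMP4 and Matrigel first and LDN193189 (a BMP inhibitor) and Wnt3 later. The later medium of both also held hydrocortisone and methylcellulose. ES–FLB aggregates were treated with retinoic acid and ES–HLB aggregates with a retinoic acid antagonist, and GFP-positive cells were then sorted from 96 aggregates. The sort keeps Hand2-positive cells, so these values describe sorted cells and not whole aggregates. The embryonic groups came from Slc:ICR mice and were dissected tissue pooled from 3 embryos. They comprised forelimb buds (FLB) and hindlimb buds (HLB) at E10.5 and at an earlier stage labelled E10.0, together with branchial arch (BA), cardiac tissue (Ca) and tail bud (TB) at E10.5. The figure legend of the study gives E9.75 and E10.25 for the early FLB and early HLB, so these 2 groups may differ in stage as well as in limb type. Each group had 3 libraries, apart from the E10.5 HLB with 2, because replicate 2 of that group held no values on several chromosomes, those of Myl2, Myl3 and Tnni3 among them, and was left out. Nothing in the labels says that replicates were separate litters or cultures, so p-values measure only the spread between these libraries.

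Striated muscle contracts when myosin filaments pull on actin filaments inside the sarcomere. Calcium binding to the troponin complex on the thin filament frees the sites where myosin heavy chains grip actin, and the light chains stiffen and tune the myosin neck. The heart uses chamber-biased and stage-biased isoforms. Myl7 and Myl4 are known for the atrium of the mature mouse heart, Myl2 and Myl3 for the ventricle, Myh6 as the main heavy chain of the adult mouse heart, and Myh7 and Tnni1 for the heart before birth.

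Values are CPM, reads of a gene per 1000000 reads on all genes, after scaling between libraries. Reads on genes were between 5543755 and 22142300 per library, so 3 reads corresponded to between 0.153 and 0.549 CPM. A level under that of 3 reads is not told apart from none at this depth. Depth differed between groups. The early limb bud libraries held 19642245 to 22142300 reads and the other libraries used 5543755 to 8541930. Values within 0.05 of a whole number of reads made up 93.1% to 93.6% in the early limb buds and 98.9% to 99.2% elsewhere. Comparisons of early limb buds with other groups carry this difference too, and its part in them was not tested. Replicate 3 of BA and replicate 3 of the early FLB held more of these genes than the other libraries of their groups, so results that rest on them are given with and without them. Levels in CPM grow with transcript length, so genes are compared with one another only per kilobase.

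The sequences just upstream of these genes show letters known from muscle genes. Of the 14 promoters that RefSeq lists for the 10 genes (GRCm38.p6), the 250 bases before the start held a CArG box, the serum response factor motif, in 3, those of Myl3, Myl7 and Actc1. A CArG box occurred in 1.48% of all 32536 promoters searched in the same way. The M-CAT motif (CATTCC, the TEAD factor motif), searched on both strands like every motif here, was found in 5 of the 14 promoters and in 12.6% of all promoters. The following 5 hold these motifs and precede genes that differ in the patterns described further on. Tnnt2 (start 1), not shown, also held an M-CAT match, 27 to 22 bases before the start. Capitals mark CArG boxes and M-CAT matches on either strand, and each line runs 5′ to 3′ along the strand of its gene.
Myl3, chr9:110763428-110763677, + strand: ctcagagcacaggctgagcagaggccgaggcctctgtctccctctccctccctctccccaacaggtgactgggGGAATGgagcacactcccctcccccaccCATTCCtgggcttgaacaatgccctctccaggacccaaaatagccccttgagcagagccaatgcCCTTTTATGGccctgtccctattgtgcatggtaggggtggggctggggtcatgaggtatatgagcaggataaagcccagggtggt
Myl7, chr11:5898783-5899032, − strand: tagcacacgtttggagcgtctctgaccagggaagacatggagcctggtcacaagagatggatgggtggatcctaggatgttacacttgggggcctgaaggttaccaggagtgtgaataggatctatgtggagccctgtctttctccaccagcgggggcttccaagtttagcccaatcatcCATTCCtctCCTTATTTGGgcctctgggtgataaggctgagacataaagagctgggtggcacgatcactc
Actc1, chr2:114052876-114053125, − strand: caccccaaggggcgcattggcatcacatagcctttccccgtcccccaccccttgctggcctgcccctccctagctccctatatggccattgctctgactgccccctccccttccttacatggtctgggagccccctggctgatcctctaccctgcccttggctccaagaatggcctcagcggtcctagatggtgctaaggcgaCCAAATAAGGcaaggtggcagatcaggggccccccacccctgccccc
Myh6, chr14:54966608-54966857, − strand: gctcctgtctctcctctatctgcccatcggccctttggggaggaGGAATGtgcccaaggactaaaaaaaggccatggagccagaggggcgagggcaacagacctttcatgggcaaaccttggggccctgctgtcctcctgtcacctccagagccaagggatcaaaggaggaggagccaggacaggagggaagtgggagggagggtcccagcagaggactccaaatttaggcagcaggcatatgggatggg
Myh7 (start 2), chr14:54994627-54994876, − strand: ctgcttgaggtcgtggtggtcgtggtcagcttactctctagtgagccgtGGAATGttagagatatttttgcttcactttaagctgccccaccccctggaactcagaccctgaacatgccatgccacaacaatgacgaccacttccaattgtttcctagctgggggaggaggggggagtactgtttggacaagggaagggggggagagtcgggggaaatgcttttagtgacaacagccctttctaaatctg

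The CArG box of Actc1 lay 47 to 38 bases before the start, that of Myl7 61 to 52 bases and that of Myl3 85 to 76 bases. The printed Myh7 window, at the upstream one of its starts, and the Myh6 window each held a single M-CAT match and no CArG box. Other motifs were also common outside muscle genes. GATAA, the GATA factor motif, was found in 4 of the 14 promoters and in 22.5% of all promoters, and the NKX2-5 motif AAGTG in 7 of 14 and in 40.6%. The MEF2 motif was found in 0 of 14 and in 2.89%, and TATAAA in 1 of 14 and in 12.3%. These matches describe letters in a short window and say nothing about binding.

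All 10 genes were highest in Ca, and in each of them the lowest Ca library exceeded the highest of the 23 other libraries. The ratio between those 2 libraries ranged from 41.9 for Tnni1 and 84.0 for Actc1 to 3686 for Myl2. Together the 10 genes took 2.66% ± 0.223 (SD, n = 3) of the reads in Ca. In the other groups their mean summed level lay between 7.63 CPM in the E10.5 HLB and 79.3 CPM in TB. Fewer cardiac cells and less RNA per cell cannot be told apart in such bulk tissue, in Ca or elsewhere.

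**Figure D1:**
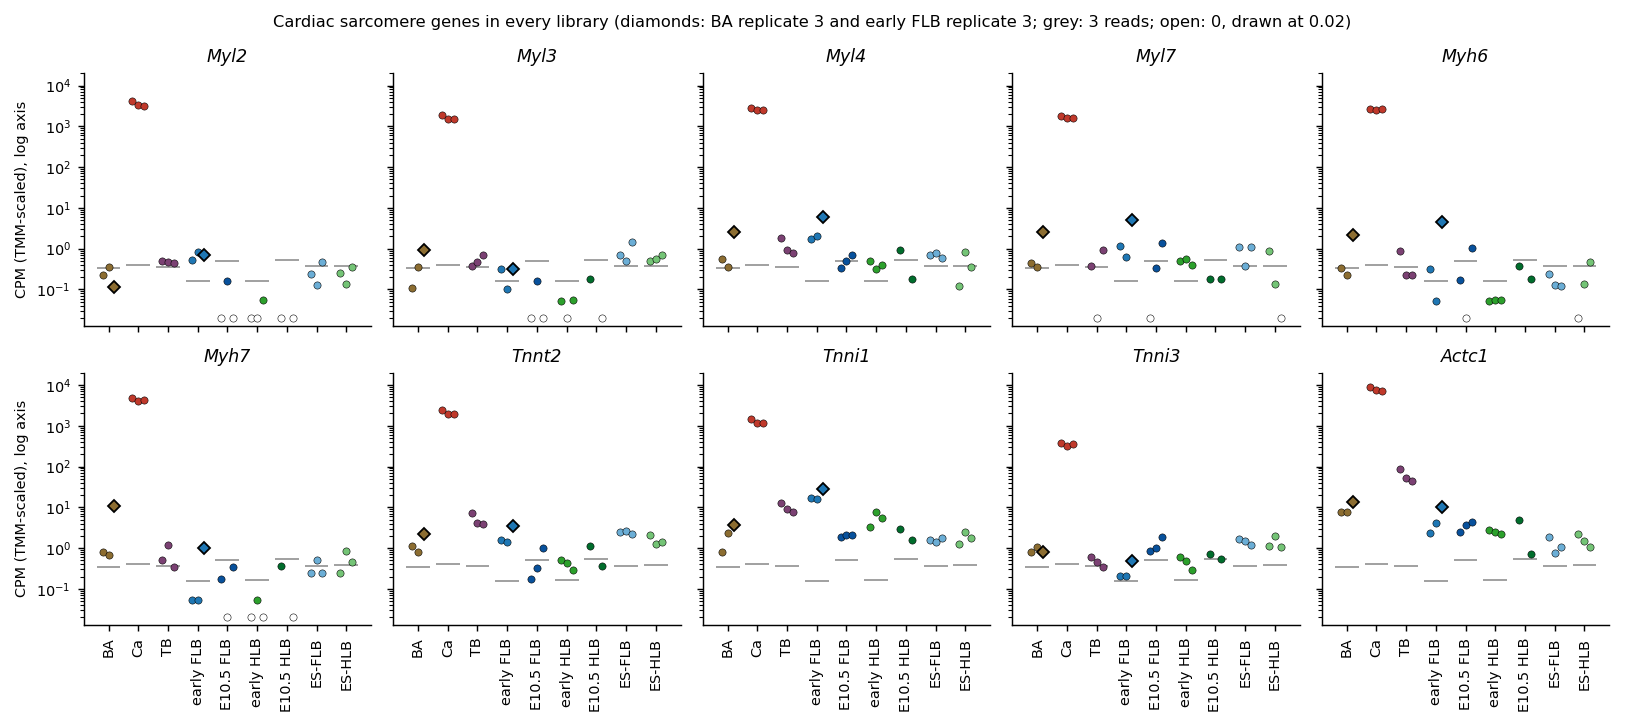
Scaled CPM (log axis) of the 10 genes in every library of the 9 groups, with 1 panel per gene. Points are libraries, diamonds mark BA replicate 3 and early FLB replicate 3, grey lines show the level of 3 reads and open symbols are libraries at 0. The 3 Ca libraries stand above all others in each panel, while Tnni1, Actc1 and Tnnt2 also lie above 3 reads in other tissues.

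The regulatory light chains Myl2 (chr5:122092724-122113473) and Myl7 (chr11:5896637-5898782) bind the myosin neck and are set by phosphorylation. Myl2 was at 4089.6, 3262 and 3071 CPM in the Ca libraries, a mean of 3474 ± 541 CPM (SD, n = 3). Outside Ca it never reached 1 CPM, its highest library being an early FLB at 0.833 CPM, and both E10.5 HLB libraries were at 0. Against that group the level in Ca was at least 6428-fold higher, taking 3 reads per library as the limit. Myl7 was at 1806, 1569 and 1561 CPM in Ca and reached 1 CPM in 6 of the 23 other libraries. Its mean of 1645 ± 139 CPM (SD, n = 3) in Ca was 726-fold that of the early FLB, the next group, where replicate 3 alone was at 5.01 CPM against 1.17 and 0.625 CPM. Without that library the ratio was 1834-fold, and the early FLB mean of 0.897 CPM lay below that of BA (1.13 CPM), which in turn fell to 0.396 CPM without BA replicate 3. Ccdc63, which overlaps Myl2 on the opposite strand, was at 0.0448 CPM in Ca.

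The essential light chains Myl3 (chr9:110763678-110769802) and Myl4 (chr11:104546017-104587215) sit beside the regulatory ones on the same neck. Myl3 was at 1936, 1515 and 1537 CPM in Ca, a mean of 1663 ± 237 CPM (SD, n = 3). In the other 23 libraries only 1, from the ES–FLB, passed 1 CPM, at 1.43 CPM. Pth1r, on the opposite strand of the Myl3 locus over 5285 shared bases, was at 62.5 CPM in Ca, and whether strand was used in counting is not stated. Myl4 was at 2873, 2441 and 2449 CPM in Ca, a mean of 2588 ± 247 CPM (SD, n = 3), and 809-fold its mean in the early FLB (1387-fold without replicate 3 of that group). There its 3 libraries lay at 1.70, 2.03 and 5.87 CPM, above every library of the early HLB (0.511, 0.326 and 0.396 CPM).

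The heavy chains Myh6 and Myh7 are the motor proteins themselves, the α-chain faster and the β-chain slower. They are neighbours on chromosome 14 (54941921 to 54968017 and 54970684 to 54994626), 2666 bases apart, and so alike in sequence that the split of reads between them depends on the counting and is uncertain. Myh6 was at 2627, 2485 and 2643 CPM in the Ca libraries, the narrowest relative spread of the 10 genes (mean 2585 ± 86.7 CPM, SD, n = 3). Myh7 was at 4789.9, 3944 and 4265 CPM, a mean of 4333 ± 427 CPM (SD, n = 3). Outside Ca, each passed 1 CPM in 3 libraries. Among these were BA replicate 3, with 2.12 CPM of Myh6 and 11.1 CPM of Myh7, and early FLB replicate 3, with 4.52 CPM of Myh6 and 1.02 CPM of Myh7.

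Of the troponin subunits, Tnnt2 (chr1:135836315-135852268) ties the complex to tropomyosin, and Tnni1 (chr1:135783033-135810989) and Tnni3 (chr7:4518305-4522718) are the slow skeletal and the cardiac inhibitory subunits. Tnnt2 was at 2399, 1973 and 1978 CPM in Ca, a mean of 2117 ± 245 CPM (SD, n = 3), 420-fold its mean in TB. Tnni1 was at 1456, 1191 and 1165 CPM, a mean of 1270.5 ± 161 CPM (SD, n = 3), and only 62.3-fold above the early FLB. Tnni3 was at 374, 324 and 355 CPM in Ca, a mean of 351 ± 25.3 CPM (SD, n = 3), 240-fold its mean in the ES–FLB. Tnni1 was thus the member with the smallest step between Ca and its next group. It reached 1 CPM in 22 of the 23 other libraries, Tnnt2 in 16 and Tnni3 in 8.

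Actc1 (chr2:114047282-114052875), the main actin of the embryonic and adult heart that is also made by young skeletal muscle, had the most reads of the 10 genes. It was at 8749, 7497 and 7239.7 CPM in Ca, a mean of 7829 ± 807 CPM (SD, n = 3). The 3 TB libraries came next at 86.2, 51.4 and 43.3 CPM, a mean 130-fold lower, and no library of any other group overlapped them. It reached 1 CPM in 21 of the 23 libraries outside Ca.

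Per kilobase of principal transcript, the order within Ca was different from the order of reads. Actc1 led with 5315 ± 548 CPM per kilobase (SD, n = 3), followed by Myl2 with 3908 ± 609, Myl7 with 2789 ± 235 and Myl4 with 2744 ± 262. Myl7 and Myl4 did not differ beyond their spread. Myl3 (1774 ± 253 CPM per kilobase) and Tnnt2 (1764 ± 204) were also within each other's spread, and changed places (1558 and 1676) when all annotated exons were counted as length. Tnni1 followed with 1105 ± 140 CPM per kilobase and Myh7 with 695 ± 68.5. Myh6, with 423 ± 14.2, and Tnni3, with 385 ± 27.7 CPM per kilobase, were the lowest.

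Isoform pairs were read as shares within a pair. Myl7 made up 32.3% ± 1.55 (SD, n = 3) of the reads on Myl7 and Myl2 in Ca, or 41.6% per kilobase. Myh6 made up 37.4% ± 1.77 of the reads on both heavy chains, and Myl4 61.0% ± 1.07 of those on Myl4 and Myl3. Tnni3 made up 21.7% ± 1.49 of the reads on both inhibitory troponins in Ca, so that Tnni1, known for the heart before birth, held the larger share at E10.5. Light chains known for the atrium and for the ventricle were thus both present in the dissected Ca, in proportions that differed little between the 3 libraries.

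**Figure D2:**
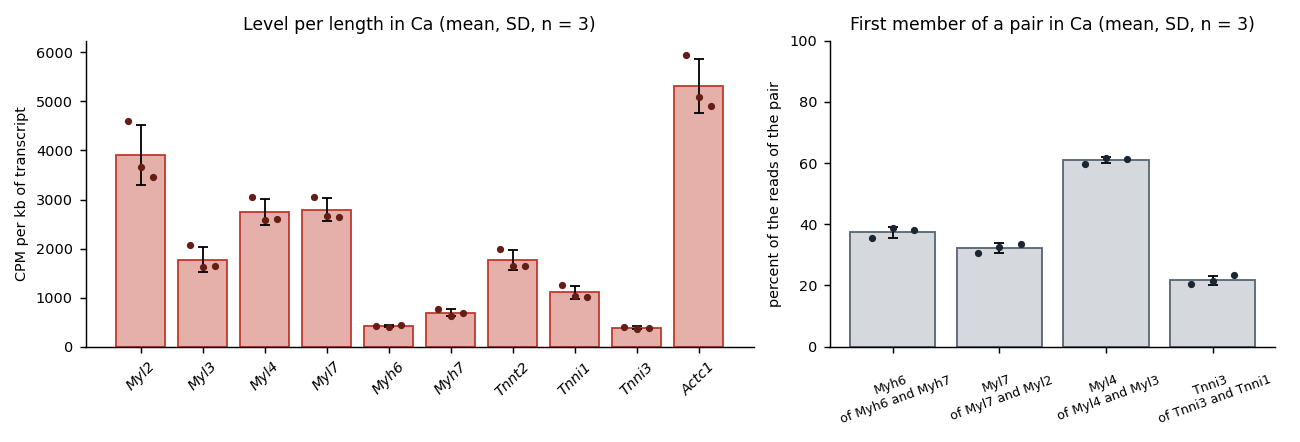
Levels of the 10 genes in the 3 Ca libraries in CPM per kilobase of principal transcript, and the share of reads that 1 gene of each isoform pair took in Ca. Points are libraries and bars are means with SD. Actc1 leads per kilobase at 5315 and Tnni3 is lowest at 385, and the pair shares range from 21.7% for Tnni3 to 61.0% for Myl4.

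The label of Ca was checked with other genes. The 8 cardiomyocyte markers other than the 10 genes (Nkx2-5, Ryr2, Pln, Nppa, Mybpc3, Ttn, Actn2 and Slc8a1) were all above 3 reads in every Ca library and summed to between 6273 and 7409 CPM. In the other groups their sum lay between 20.2 and 97.2 CPM. Nkx2-5, a cardiac homeobox factor, was at 0 in every library of TB, of both HLB stages and of the E10.5 FLB. Ca also held blood, with a summed 17377 to 24662 CPM of 3 erythroid markers. Sums of 4 endothelial, 3 epicardial and 3 smooth muscle markers were above those in BA and TB. Single markers could go the other way. Aldh1a2 (epicardial) was at 51.6 CPM in Ca and 82.9 CPM in TB, and Mylk (smooth muscle) at 13.1 and 18.2 CPM.

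When Ca was set against BA, TB and the E10.5 limb buds, all 10 genes were called higher in Ca, with limma on log2(CPM + 0.5) at an adjusted p under 0.05. Of all 14438 genes tested, 36% were higher in Ca than in BA, 35.2% than in TB, 36.1% than in the E10.5 FLB and 35.3% than in the E10.5 HLB. The fitted log2 differences ran from 6.97 for Tnni1 against TB (SE 0.36, adjusted p = 7.71e-13) to 12.75 for Myl2 against the E10.5 HLB (SE 0.23, adjusted p = 3.45e-29). The added 0.5 CPM makes such differences smaller than the ratios of means given before. Myl2 and Myl3 passed the filter on low values only through Ca and therefore had to differ.

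The sorted ES-derived cells lay on the low side of the same contrast. All 10 genes were called lower in ES-derived cells (both kinds averaged) than in Ca, where 39.5% of all genes were lower, with log2 differences between −7.53 for Tnni3 and −12.23 for Myh7. Myh6 was at 0.238, 0.128 and 0.119 CPM in the ES–FLB and at 0, 0.139 and 0.469 CPM in the ES–HLB, 1 of these libraries exceeding the level of 3 reads. Summed over the 10 genes, the ES–FLB libraries held 8.81 to 10.8 CPM and the ES–HLB libraries 7.62 to 9.89 CPM, within the range of the E10.5 limb bud libraries (3.72 to 12.7 CPM). The 8 cardiomyocyte markers summed to between 72.7 and 97.2 CPM in these cells, above the other non-cardiac groups. Most of that sum was Slc8a1, the sodium-calcium exchanger gene, at 79.6 to 85.4 CPM in the ES–FLB and 61.5 to 63.8 CPM in the ES–HLB. Pln, the phospholamban gene, was at 0 in all ES–FLB libraries.

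Genes that accompany the 10 in the sarcomere followed them into Ca. Of 30 other sarcomere genes, 29 were tested and 28 were called higher in Ca than in BA, where 36% of all genes were. The median log2 difference of the 29 was 6.96, beside −0.04 over all genes. Mybpc3, the myosin-binding protein C of the heart, differed by 10.67 on the log2 scale (SE 0.40, adjusted p = 1.4e-17). Ankrd1 and Csrp3, sarcomeric stretch-response genes, both differed by 9.14. Among 26 genes of calcium handling, energy supply and membrane, 25 were tested, of which 23 were higher, among them Nppa (natriuretic peptide A) by 11.30 and Pln by 8.85, and 2 were lower, the connexin genes Gja1 (−0.60) and Gjc1 (−0.56). Of 21 cardiac transcription factors, 17 were higher in Ca than in BA and 3 were lower.

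Some genes had a profile over the 9 groups very close to that of the 10. With the mean standardised profile of the 10 genes, Pearson's r over the 9 group means was 0.999 for Hspb2, a small heat shock protein gene, and 0.998 for Ankrd1. Lmod3, Klhl31, Srpk3, Lmod2, Tnnc1 (cardiac troponin C), Cav3, Smpx and Hspb3 followed, down to 0.994. The 10 genes themselves ranged from 0.947 for Actc1 and 0.948 for Tnni1 to 0.999 for Myl2. These correlations over 9 points rest on the contrast of 1 group with 8 and are given as a description.

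Outside Ca, 20 of the 80 pairs of a gene and a group had a mean at or under 3 reads, and the rest separated the 10 genes into different patterns. Tnni1 was ordered early FLB (20.4 CPM), TB (9.78 CPM), early HLB (5.45 CPM) and then the remaining 5 groups between 1.58 and 2.28 CPM. The step from the early FLB to TB was free of overlap, while neighbours further down overlapped. Actc1 was ordered TB (60.3 CPM), BA (9.69 CPM), early FLB (5.62 CPM) and then the other limb buds, with the ES–HLB (1.61 CPM) and ES–FLB (1.25 CPM) last. Tnnt2 was highest in TB (5.04 CPM), apart from the next group, and Tnni3 in the ES–FLB (1.46 CPM), where it overlapped the ES–HLB and the E10.5 FLB. Myh7 came next to Ca in BA (4.17 CPM, a mean that 1 library dominated), and Myh6, Myl4 and Myl7 in the early FLB. Without the 2 libraries that stood apart, TB came next for Myh6. BA stayed next for Myh7, at 0.737 CPM beside 0.666 CPM in TB.

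**Figure D3:**
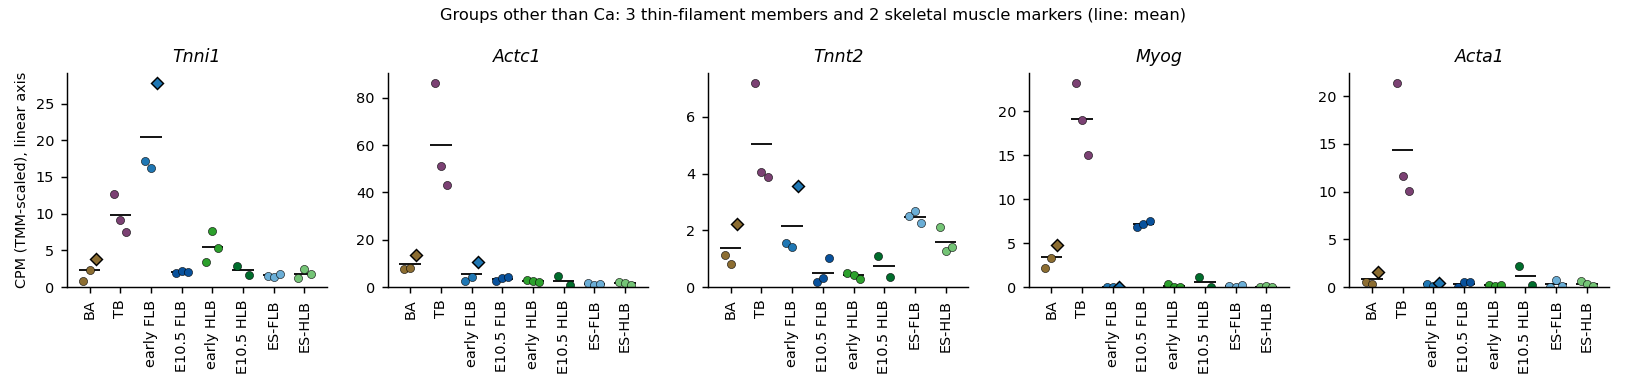
Scaled CPM (linear axis) of Tnni1, Actc1 and Tnnt2, and of the skeletal muscle genes Myog and Acta1, in the libraries of the 8 groups other than Ca. Points are libraries, diamonds mark BA replicate 3 and early FLB replicate 3, and lines are group means. Tnni1 peaks in the early FLB and Actc1, Tnnt2, Myog and Acta1 in TB.

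The balance of the inhibitory troponins differed between these tissues. Tnni3 made up 1.40% ± 0.272 (SD, n = 3) of the reads on Tnni3 and Tnni1 in the early FLB and 4.61% ± 0.241 in TB. In the ES–FLB it was 48.0% ± 6.94 and in the ES–HLB 42.9% ± 4.99 (SD, n = 3 each), on 19 to 32 reads per library. The E10.5 FLB had 36.9% ± 9.48, on 16 to 23 reads per library, and its range overlapped those of both ES-derived groups. BA had 33.0% ± 16.1 (SD, n = 3) and the E10.5 HLB 22.5% ± 3.54 (SD, n = 2). All 3 ES–FLB libraries exceeded all 3 early FLB libraries, and the corresponding hindlimb groups did not overlap either, the early HLB being at 8.81% ± 5.71.

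Genes with the closest pattern over the 8 groups other than Ca differed between the members. They were picked as the closest of many genes over 8 points, where high r values can arise from the choice alone, and are given as a description. For Actc1 these were Pik3ap1 (Pearson's r = 0.976), Celsr1 and Lmod1, and for Tnnt2 Onecut2 (r = 0.975), Tubb2a and Car3. For Tnni1 they were Polr1a (r = 0.967), 1810055G02Rik and Lef1, and for Tnni3 Filip1l (r = 0.994), Leprel2 and Gtf2ird2. Myh7 was nearest to Htra3, Neurod1 and Dnajc1. The r values of Myh7 (Htra3, 0.970), Myl4 (Sbf2, 0.892), Myl7 (Fam78b, 0.948) and Myh6 (Phc2, 0.900) were computed from group means that 1 library dominated.

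In TB, 5 of the 10 genes were called higher than in the E10.5 HLB, beside 18.5% of all genes. Actc1 differed by 4.53 on the log2 scale (SE 0.55, adjusted p = 2.77e-06), its HLB libraries lying at 4.76 and 0.709 CPM. Tnnt2, at 7.19, 4.06 and 3.87 CPM in TB and at 1.10 and 0.354 CPM in the HLB, differed by 2.20 (SE 0.36, adjusted p = 2.51e-05). Tnni1, at 12.7, 9.16 and 7.52 CPM in TB and at 2.93 and 1.59 CPM in the HLB, differed by 1.91 (SE 0.40, adjusted p = 0.000739). Each of these was free of overlap between the groups. The calls on Myl2 (0.96, adjusted p = 0.00135) and Myl3 (0.77, adjusted p = 0.0334) rested on TB levels under 0.7 CPM, and the level of 3 reads in the HLB was 0.540 CPM on average, so neither difference was detectable in reads at this depth. Myl3 also lost its call without TB replicate 2 or 3 or E10.5 HLB replicate 3 (adjusted p = 0.0536 to 0.266). Myl4, Myl7, Myh6, Myh7 and Tnni3 were not called, with log2 differences between −0.22 and 0.76.

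Skeletal muscle genes were high in the same TB libraries. Myog, which drives the final differentiation of myoblasts, was at 23.2, 19.0 and 15.0 CPM in TB and at 1.10 and 0 CPM in the E10.5 HLB, a log2 difference of 4.43 (SE 0.41, adjusted p = 1.32e-09). Acta1, the skeletal α-actin, differed by 3.38 (SE 0.50, adjusted p = 1.39e-05), and Pax7 and Cdh15, of muscle precursors, by 2.94 each. In all, 12 of 19 skeletal muscle markers tested were higher in TB and 1 was lower, where 18.5% of all genes were higher. Of 29 other sarcomere genes, 17 were higher and 0 lower, Ttn by 2.74 and Myom2 by 2.46. The summed level of 5 defining skeletal muscle markers was 105 to 122 CPM in TB and 15.4 to 17.6 CPM in the E10.5 HLB. Most of the TB sum was Pax3, so it mainly reflects that gene. Pax3 was lower in Ca than in TB by a log2 difference of −6.64 in limma. Myod1 was not high in TB and was 0.85 higher in Ca (limma, adjusted p = 0.0318). The 8 cardiomyocyte markers summed to 20.2 to 29.1 CPM in TB and 27.8 CPM in both HLB libraries. The part of skeletal muscle cells in the levels of Actc1, Tnnt2 and Tnni1 was not tested.

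In BA, 3 of the 10 genes were called higher than in the E10.5 FLB, where 11% of all genes were. They were Myh7 (log2 difference 1.99, SE 0.62, adjusted p = 0.0282), Tnnt2 (0.92, SE 0.32, adjusted p = 0.0436) and Myl3 (0.72, SE 0.26, adjusted p = 0.0456). Actc1, at 7.47, 7.85 and 13.8 CPM in BA and 2.55, 3.78 and 4.30 CPM in the FLB, did not overlap but missed the threshold (1.31, SE 0.49, adjusted p = 0.0713). Without BA replicate 3 none of the 10 was called, and Myh7 then differed by 0.91 (adjusted p = 0.0789) and Tnnt2 by 0.62 (adjusted p = 0.244). With early FLB replicate 3 left out as well, Myh7 was called (0.91, adjusted p = 0.0269). Myh7 also lost its call without E10.5 FLB replicate 1 (adjusted p = 0.0654) or 2 (adjusted p = 0.0979), and Tnnt2 without either of these (adjusted p = 0.213 and 0.144) or BA replicate 1 (adjusted p = 0.0696). Myl3 missed the threshold without BA replicate 2 or 3 or E10.5 FLB replicate 1 or 3 (0.39 to 0.77, adjusted p = 0.0628 to 0.376), and its BA mean of 0.466 CPM lay under the level of 3 reads in the E10.5 FLB (0.506 CPM on average), so its difference was not detectable in reads at this depth. Of 29 other sarcomere genes, 5 were higher in BA, among them Mylk3 (2.48, adjusted p = 3.59e-09) and Des (2.44, adjusted p = 6.86e-12), and 1 was lower.

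There were 2 libraries treated here as standing apart from the others of their groups in these genes. In BA replicate 3, 8 of the 10 genes were at their highest in the group and 6 of them exceeded both other replicates by more than 2-fold. Myh7, with 94 reads at 11.1 CPM against 0.780 and 0.693 CPM, was the furthest apart. In early FLB replicate 3, 9 of the 10 were at their highest and 7 by more than 2-fold, led by Myh6, with 84 reads at 4.52 CPM against 0.319 and 0.0521 CPM. Both sets were above 3 reads. Uneven replicates were not limited to these 2 libraries. E10.5 HLB replicate 1 was highest for 9 of the 10, 4 of them by more than 2-fold. Its summed level was 11.5 CPM, against 3.72 CPM in replicate 3, the only other library of that group. E10.5 FLB replicate 3 was highest for 7 of the 10, 4 of them by more than 2-fold. TB replicate 1 was highest for 7, 2 of them by more than 2-fold, with a summed 111 CPM against 68.3 and 58.5 CPM. Ca replicate 1 was highest for 9, with 0 by more than 2-fold. These were left out singly but not as a set.

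The heavy chain balance differed between these 2 libraries and from Ca. Myh6 made up 16.1% of the reads on both heavy chains in BA replicate 3 (95% Wilson interval 10.4% to 24.0%, 112 reads) and 81.6% in early FLB replicate 3 (73.0% to 87.9%, 103 reads). It was 35.4%, 38.7% and 38.3% in the Ca libraries, outside both intervals, which cover counting error only. The light chains did not follow that split, since Myl7 made up 95.7% (79.0% to 99.2%) of the reads on Myl7 and Myl2 in BA replicate 3 and 87.7% (80.1% to 92.7%) in early FLB replicate 3. Cardiac genes outside the 10 moved with them in part. In BA, Mybpc3 was at 0, 0.116 and 2.12 CPM and Tbx20, a cardiac T-box factor, at 0.111, 0.693 and 5.05 CPM. In the early FLB, Gata4 was at 15.2, 20.8 and 36.2 CPM. The excess in BA replicate 3 was not limited to cardiac genes. Of 15 genes looked at besides the 10 and the 8 cardiomyocyte markers, 12 were highest in it, 5 by more than 2-fold. Myod1, Myf5, Myog and Acta1 were among the 12, and Pax3, Hbb-y and Hba-x were not. In early FLB replicate 3, 6 of the 15 were highest, 1 by more than 2-fold. Shares over all genes are not given. The 8 cardiomyocyte markers summed to 20.2, 22.9 and 30.8 CPM in BA and to 56.7, 47.2 and 55.6 CPM in the early FLB. The early FLB sum was mostly Slc8a1 (52.6, 43.4 and 47.2 CPM). In each of the 2 groups, 7 of the 8 markers were at their highest in replicate 3. Of these, 2 in BA and 1 in the early FLB did so by more than 2-fold. That 1 was Ryr2, the cardiac calcium release channel gene (0.850, 1.09 and 2.91 CPM). The early FLB count includes Pln and Nppa at 1 read each in replicate 3 and 0 in the others, a level not told apart from none. The part of heart tissue or other cells in these libraries was not tested.

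**Figure D4:**
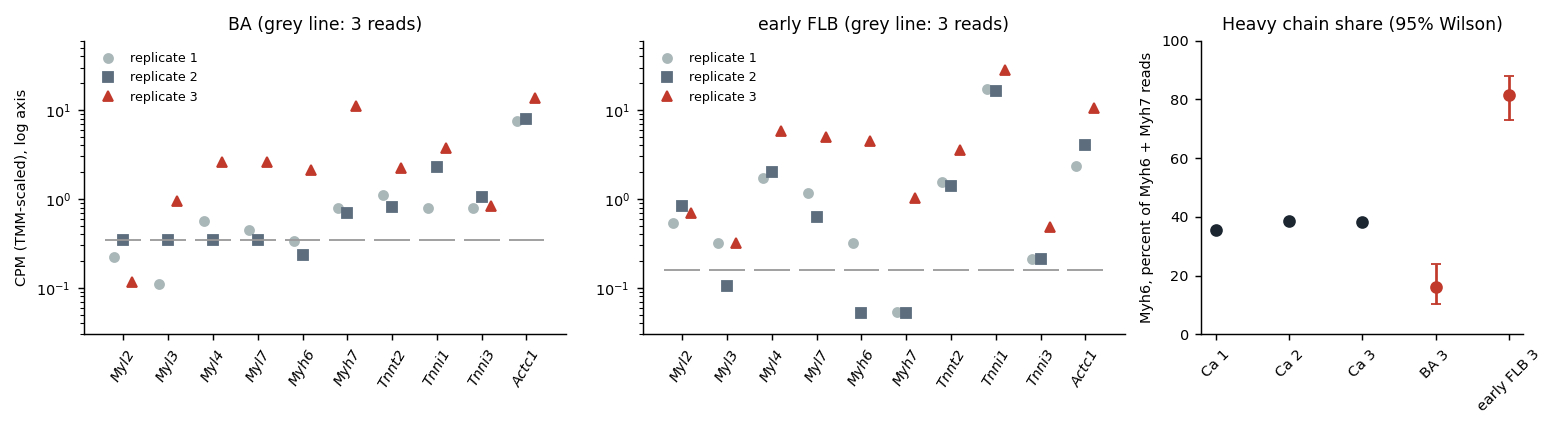
Scaled CPM (log axis) of the 10 genes in the 3 replicates of BA and of the early FLB, and the share of Myh6 among the reads on Myh6 and Myh7 in the Ca libraries, BA replicate 3 and early FLB replicate 3 with 95% Wilson intervals. Replicate 3 is highest for 8 of 10 genes in BA and for 9 of 10 in the early FLB, and the shares are 16.1% and 81.6% around 35.4% to 38.7% in Ca.

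In forelimb buds, 3 members fell from the early stage to E10.5. Of the 5 that passed the filter, 3 were called lower at E10.5, and 40.2% of all genes were. Tnni1 fell from 17.2, 16.2 and 27.8 CPM to 1.87, 2.14 and 2.07 CPM, with no overlap (log2 difference −3.01, SE 0.18, adjusted p = 2.35e-10). Myl4 differed by −1.72 (SE 0.35, adjusted p = 0.000669) and Tnnt2 by −1.40 (SE 0.35, adjusted p = 0.00259). Myl4 and Tnnt2 passed the filter only through the early FLB. Without BA replicate 3 and early FLB replicate 3 and with no filter, Tnni1 (−2.77), Myl4 (−1.24) and Tnnt2 (−1.06) were still called. Myl7 (−1.24, adjusted p = 0.226) and Actc1 (−0.39, adjusted p = 0.561) did not pass.

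Other muscle genes went different ways over the same interval. Of 15 other sarcomere genes tested, 4 were higher and 5 lower at E10.5, beside 25.7% of all genes higher and 40.2% lower. Des (desmin) differed by −1.85 (adjusted p = 2.16e-08) and Synpo2l by 1.81 (adjusted p = 1.23e-05). Skeletal muscle markers were mostly higher, with 9 of 13 up and 1 down, led by Myod1 (4.14, adjusted p = 6.69e-11) and Myog (3.90, adjusted p = 5.37e-11), the myogenic factors. Cardiac transcription factors were lower for 11 of 19 and higher for 5, among them Hand1 by −4.54, Tbx20 by −3.87 and Gata5 by −3.44. When CPM were used as deposited, the median over all genes moved by 0.23 in this comparison and the share of higher genes among those called went from 39.0% to 66.0%.

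In hindlimb buds, 1 member changed over the same interval. Only Tnni1 and Actc1 passed the filter, and Tnni1 was called lower at E10.5 (−1.08, SE 0.33, adjusted p = 0.0319, 20.9% of all genes lower), from 3.37, 7.65 and 5.32 CPM to 2.93 and 1.59 CPM. The call rested on single libraries, since it was lost without early HLB replicate 2 (−0.82, adjusted p = 0.0663) or 3 (−1.07, adjusted p = 0.0851) and without E10.5 HLB replicate 1 (−1.44, adjusted p = 0.0542) or 3 (−0.73, adjusted p = 0.248). Actc1 differed by −0.25 (SE 0.58, adjusted p = 0.779).

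The stage change itself differed between limb types (HLB minus FLB), for Tnni1 by 1.93 on the log2 scale (SE 0.40, adjusted p = 0.00343), for Myl4 by 1.83 (SE 0.54, adjusted p = 0.0196) and for Tnnt2 by 1.77 (SE 0.53, adjusted p = 0.0199), beside 14.3% of all genes with a higher stage change in the HLB. Myl4 and Tnnt2 passed the filter only through the early FLB. Without the 2 libraries that stood apart and with no filter, Tnni1 kept its call (1.69, adjusted p = 0.024), while Myl4 (1.35, adjusted p = 0.0552) and Tnnt2 (1.43, adjusted p = 0.0877) did not. Without E10.5 HLB replicate 1, which leaves 1 library in that group, Myl4 (1.30, adjusted p = 0.137) and Tnnt2 (1.32, adjusted p = 0.133) lost their calls. Tnnt2 did so also without early FLB replicate 3 (1.43, adjusted p = 0.0586) or E10.5 FLB replicate 1 (1.52, adjusted p = 0.0512).

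Between the early limb buds, 3 of 4 members tested were called lower in the HLB, where 11.1% of all genes were lower. Tnni1 differed by −1.84 (SE 0.34, adjusted p = 0.016), Myl4 by −1.86 (SE 0.37, adjusted p = 0.00909) and Tnnt2 by −1.47 (SE 0.29, adjusted p = 0.0049). Their early FLB and early HLB libraries did not overlap, although Tnni1 missed the threshold without early HLB replicate 3 (−1.85, adjusted p = 0.0693). Myl4 and Tnnt2 passed the filter only through the early FLB, and with no filter and without the libraries that stood apart they differed by −1.38 (adjusted p = 0.00187) and −1.13 (adjusted p = 0.00531). Actc1 missed the threshold (−0.80, adjusted p = 0.323). Tbx5, the forelimb T-box factor that is also a cardiac factor, differed by −6.38 (adjusted p = 3.2e-11) and Gata4 by −4.77 (adjusted p = 7.51e-05). At E10.5, 0 of 2 members tested were called between HLB and FLB by limma, and neither had an unadjusted p under 0.05 (Tnni1 0.09, Actc1 −0.66), while 26.1% of all genes were called.

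The ES–FLB differed from the early FLB in 4 of the 6 members tested, where 82% of all genes were called in either direction. Tnni1, at 1.55, 1.40 and 1.79 CPM in the ES–FLB, was lower by 3.29 (log2 difference −3.29, SE 0.19, adjusted p = 1.87e-10), and Myl4 was lower as well (−1.46, SE 0.35, adjusted p = 0.0029). Actc1 was lower by a difference of −1.63 (SE 0.55, adjusted p = 0.037), at 1.91, 0.766 and 1.07 CPM against 2.34, 4.06 and 10.4 CPM. Tnni3 was higher, at 1.67, 1.53 and 1.19 CPM against 0.213, 0.208 and 0.485 CPM (1.30, SE 0.23, adjusted p = 6.47e-05). Myl4 passed the filter only through the early FLB and Tnni3 only through the ES–FLB. Tnnt2 (0.25, adjusted p = 0.374) and Myl7 (−0.75, adjusted p = 0.331) were not called. Without early FLB replicate 3 and with no filter, Tnni1 differed by −3.05, Tnni3 by 1.46, Actc1 by −1.09 and Myl4 by −0.99, each still called. The call on Actc1 was lost with CPM as deposited (adjusted p = 0.0554), which moved the median over all genes by 0.31, and without early FLB replicate 2 (adjusted p = 0.0617) or ES–FLB replicate 2 (adjusted p = 0.107) or 3 (adjusted p = 0.12).

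The ES–HLB differed from the early HLB in 4 of 4 members tested, beside 78.3% of all genes. Tnni1 was lower (−1.32, SE 0.28, adjusted p = 0.000825), at 1.25, 2.51 and 1.76 CPM. Tnnt2, at 2.12, 1.25 and 1.41 CPM against 0.511, 0.434 and 0.283 CPM in the early HLB, was higher (1.19, SE 0.23, adjusted p = 0.000283). Tnni3 was higher too (0.95, SE 0.25, adjusted p = 0.00279), at 1.12, 1.95 and 1.05 CPM against 0.613, 0.489 and 0.283 CPM. Actc1 was lower by a small difference (−0.55, SE 0.22, adjusted p = 0.0362), and its call was lost with CPM as deposited (adjusted p = 0.177) and without any 1 of the 3 early HLB libraries or ES–HLB replicate 2 or 3 (adjusted p = 0.0501 to 0.197). Tnnt2 and Tnni3 passed the filter only through the ES–HLB. With no filter, Tnnt2 (1.19, adjusted p = 0.000515), Tnni3 (0.95, adjusted p = 0.00404) and Tnni1 (−1.32, adjusted p = 0.00182) were still called and Actc1 was not (−0.55, adjusted p = 0.0526). For Tnnt2, a test of whether the difference between ES-derived and early limb buds depended on limb type gave 0.94 (SE 0.36, adjusted p = 0.0638).

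**Figure D5:**
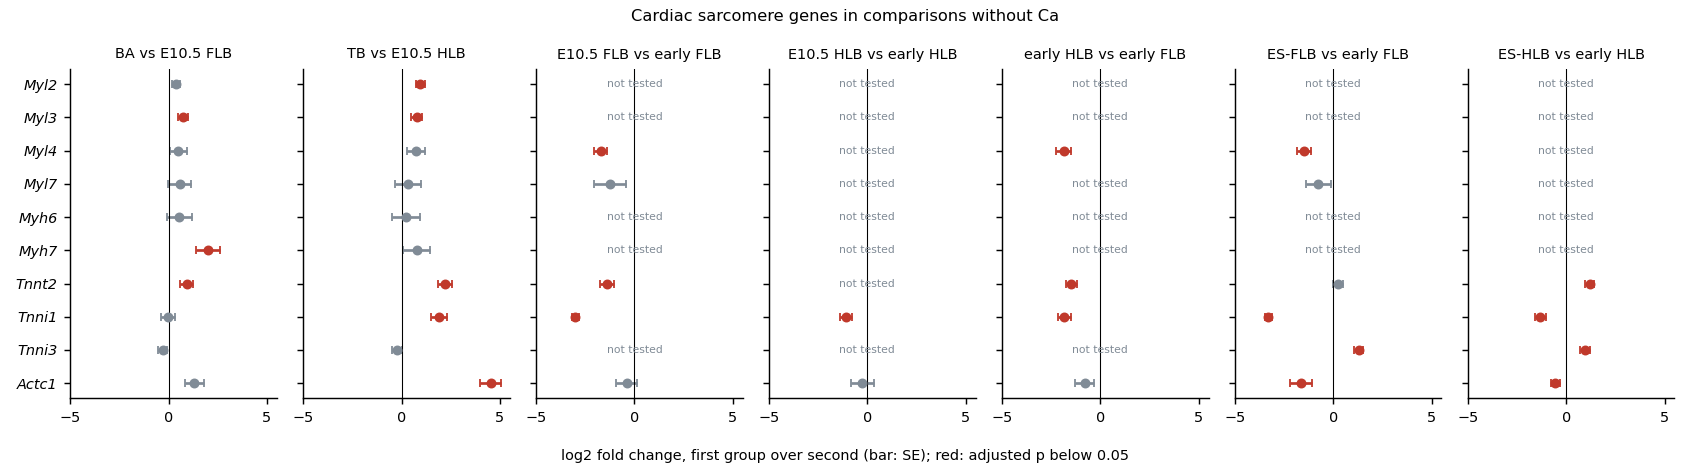
Log2 differences with SE, from limma on log2(CPM + 0.5), of the members tested in 7 comparisons that leave Ca out. Red symbols passed an adjusted p of 0.05, grey ones did not, and members kept out by the filter are marked as not tested. Tnni1 is lower at E10.5 and in the ES-derived cells, from −1.08 to −3.29, and Actc1 is 4.53 higher in TB than in the E10.5 HLB.

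Between ES–HLB and ES–FLB, 0 of 4 members tested passed by limma, where 25.1% of all genes did. Tnnt2 alone had an unadjusted p under 0.05 in limma, with a difference of −0.53 (SE 0.24, adjusted p = 0.11). Differences of Tnni1 (0.14, SE 0.26), Tnni3 (−0.09, SE 0.27) and Actc1 (0.28, SE 0.29) were close to their errors. The limb type difference of the early limb buds and that of the ES-derived cells were not equal for Tnni1 (1.97, SE 0.38, adjusted p = 0.00133) and Myl4 (1.44, SE 0.47, adjusted p = 0.0363), beside 12.7% of all genes with a higher value in that direction. Myl4 passed the filter only through the early FLB. Without the libraries that stood apart and with no filter, Tnni1 kept its call (1.73, adjusted p = 0.00567) and Myl4 did not (0.96, adjusted p = 0.0889). Myl4 also missed the threshold without any 1 of the ES–FLB libraries, replicate 2 or 3 of the early HLB or replicate 2 or 3 of the ES–HLB (1.15 to 1.48, adjusted p = 0.0646 to 0.0953).

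Other sarcomere genes differed in both directions between ES-derived and embryonic limb buds. Of 17 tested in the forelimb comparison, 5 were higher and 7 lower in the ES–FLB, where 82% of all genes were called in either direction. Palld (palladin, of actin bundles in many cell types) differed by 2.38 (adjusted p = 1.87e-09) and Des by −1.87 (adjusted p = 1.62e-09). Of 13 tested in the hindlimb comparison, 5 were higher and 4 lower, where 78.3% of all genes were called in either direction. There Trim63, a muscle ubiquitin ligase, differed by 2.78 (adjusted p = 2.77e-07), Actn2 (sarcomeric α-actinin) by 1.80 (adjusted p = 2.71e-06) and Des by −1.48 (adjusted p = 5.6e-06). Between the ES-derived groups, 25.1% of all genes were called in either direction. There 1 of 14 was higher in the ES–HLB, Trim63 (0.95, adjusted p = 0.00154), and 4 were lower, among them Ttn (−1.16, adjusted p = 0.000117). The medians were 0.08 in the forelimb and 0.15 in the hindlimb comparison, beside −0.08 and −0.07 over all genes.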

How the data were processed

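Per the submitters' processing notes and the methods, the authors checked single-end reads of stranded mRNA libraries with FastQC 0.11.5, mapped them with HISAT2 2.0.4 (mm10), counted with Cuffdiff and used edgeR 3.16.2. The notes name Cufflinks 2.1.1, and the methods give another version for Cuffdiff. The strand setting of the counting is not given in the sources used here. They deposited CPM, 1 value per gene and library. Between 93.1% and 99.2% of values lay within 0.05 of a whole number of reads, which gave the depths. Of 27 libraries 26 were used.

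CPM were rescaled by trimmed means (30% of log ratios and 5% of intensities trimmed, factors 0.867 to 1.09). A gene entered a fit if 3 or more of its libraries reached 1 CPM. Tests on log2(CPM + 0.5) used limma 3.58.1 (trended, robust) in R 4.3.3, checked on simulated data, with Benjamini-Hochberg adjustment over all genes tested and a threshold of 0.05. Contrasts with Ca, BA and TB used all 26 libraries, the others their own groups.

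The members, lists and tests were chosen with earlier results of these data known. All 10 members are named throughout. From other lists, up to 4 genes with the largest called differences are named, besides the 10 genes closest to the mean profile (at least 16 CPM in Ca) and the 3 closest to each member outside Ca. Others were chosen after their values were seen. Promoters came from RefSeq (GRCm38.p6) and positions from GENCODE on that build.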

Additional observations from a re-analysis of the deposited data

Results flagged for a closer look

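For 3 members the change from the early stage to E10.5 was not the same in hindlimb and forelimb buds by the interaction term of limma, namely Tnni1 (HLB minus FLB 1.93 on the log2 scale, SE 0.40, adjusted p = 0.00343), Myl4 (1.83, SE 0.54, adjusted p = 0.0196) and Tnnt2 (1.77, SE 0.53, adjusted p = 0.0199). For Tnni1 (1.97, SE 0.38, adjusted p = 0.00133) and Myl4 (1.44, SE 0.47, adjusted p = 0.0363), the difference between hindlimb and forelimb was not the same in ES-derived cells and early limb buds. All 5 share the early FLB libraries, in which replicate 3 had the highest Tnni1 (27.8 CPM), Myl4 (5.87 CPM) and Tnnt2 (3.55 CPM), and the early FLB and early HLB may differ in stage. The early limb bud libraries were also deeper than the rest. Myl4 and Tnnt2 passed the filter only through the early FLB. Without BA replicate 3 and early FLB replicate 3 and with no filter, Tnni1 kept its calls and Myl4 and Tnnt2 lost theirs.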

How the results depend on the processing

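No difference of a called member, or of another gene named with a difference, changed sign under any alternative in which it was tested. Differences of members that were not called were not checked for sign. All 10 members were called in each contrast with Ca, or at least 9 with 1 library left out. Among the other counts of called members, that of BA against the E10.5 FLB (3) was 1 with no filter, with a pseudocount of 1, without trend and robust estimation, with only the libraries of its 2 groups in the fit and without BA 3 and early FLB 3, with or without filter, an alternative added after seeing the data. With no filter, E10.5 FLB against early FLB (3) and early HLB against early FLB (3) each gave 5. A filter of 5 CPM left 1 call in each of these and in ES–FLB against early FLB, the stage change and the limb type difference, and 0 calls in both HLB comparisons (E10.5 and ES–HLB against early HLB). Without trend and robust estimation, E10.5 HLB against early HLB gave 0, the stage change 1 and the limb type difference 1. With only its own 5 libraries in the fit, TB against E10.5 HLB gave 3, and with all libraries in the fit E10.5 FLB against early FLB gave 5. Without both libraries that stood apart, early HLB against early FLB, the stage change and the limb type difference gave 1 each. With no filter in addition, E10.5 FLB against early FLB gave 5 and ES–FLB against early FLB 8. CPM as deposited left 1 limb type difference. With each replicate left out in turn, calls ranged from 0 to 2 (BA against E10.5 FLB), 1 to 3 (early HLB against early FLB, stage change), 2 to 4 (ES–FLB against early FLB), 1 to 3 (ES–HLB against early HLB), 0 to 1 (both E10.5 HLB comparisons) and 1 to 2 (limb type difference). The cause was not tested.

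Samples of the same number correlated between −0.0869 and 0.126 in their deviations, not above 0.1 in every pair of any comparison, so they share only a number. With a replicate block, 4 members were called in E10.5 FLB against early FLB and 3 in ES–FLB against early FLB, where Actc1 lost its call (adjusted p = 0.0603). Without trend and robust estimation, genes called fell from 3808 to 2468 in E10.5 HLB against early HLB and from 3284 to 853 in E10.5 HLB against E10.5 FLB. CPM as deposited raised the share of higher genes among those called from 46.2% to 66.2% in TB against E10.5 HLB, from 45.6% to 62.4% in ES–FLB and from 45.3% to 60.6% in ES–HLB against early limb buds, from 31.8% to 56.2% in E10.5 HLB against early HLB and from 44.9% to 61.8% between early limb buds, and lowered it from 58.3% to 31.1% between E10.5 limb buds, from 59.3% to 29.0% for the stage change and from 56.1% to 44.5% for the limb type difference. The planned count tests (edgeR, DESeq2) could not be run on CPM. Depth limits members under 3 reads.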
